A study of Mus musculus with 4 samples.

Results

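Transcription factor families that lay out regions and cell types of the embryonic brain were followed in the mouse lateral habenula. The families are the Iroquois (Irx), LIM-homeodomain (Lhx), Sox, forkhead (Fox), Nkx, Zic and POU genes. Members were all protein-coding genes whose symbol has the form of these families, with Zic1, Pou4f1 and Foxj1 left to other gene groups, and with at least 10 counts summed over the libraries. Of 108 such genes in the count matrix 73 reached that sum, out of 53465 gene identifiers in all. They were 25 Fox, 18 Sox, 9 Pou, 6 Irx, 6 Lhx, 5 Nkx and 4 Zic genes. The rule used no difference between groups. Nkx6-1 (10 counts in all) and Pou2f3 (12) lay just inside the minimum, and Nkx6-3 (9) just outside it.

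The lateral habenula is an epithalamic nucleus whose output reaches dopamine and serotonin neurons of the midbrain. Its polyadenylated RNA was sequenced from C57BL/6 mice that were group-housed (2 libraries) or socially isolated (2 libraries). The series title calls the isolation acute. The labels name no genotype, agent, age or length of isolation, and do not say how many animals gave each library. A p-value here therefore reflects the spread among these libraries alone, which may be technical. The libraries held 20897605 to 26428152 counts, and 3 counts corresponded to 0.113 to 0.146 CPM (counts scaled to 1e6 per effective library size). All 11 lateral habenula markers were detected, with Gpr151 between 352 and 426 CPM. Markers of the adjoining medial habenula were present as well, and their sum ran from 1927 to 2067 CPM in group-housed mice and from 2459 to 2479 CPM after isolation. In such bulk tissue, fewer cells of a type and less RNA per cell cannot be told apart.

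All of these families encode DNA-binding proteins. In the embryo they are switched on in stripes and domains that later become separate nuclei, and many stay on in the adult cells that descend from those domains. The Iroquois genes encode homeodomain proteins that are active in the caudal diencephalon, the source of thalamus and habenula. Lhx proteins carry LIM domains that bind the cofactor Ldb1, Sox proteins bend DNA through an HMG box, forkhead proteins bind through a winged helix, Zic proteins through zinc fingers, and POU proteins through a POU-specific domain joined to a homeodomain. Several Sox and Nkx genes mark glia rather than neurons.

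Irx genes lie in 2 clusters of 3, with Irx1, Irx2 and Irx4 on chromosome 13 and Irx3, Irx5 and Irx6 on chromosome 8. RefSeq promoter entries were found for Irx2, Irx3 and Irx4, and the Irx3 window overlaps annotated exons. The sequences before the start sites of Irx2 and Irx4 are therefore shown, neighbours in 1 cluster and the highest and lowest of the family by level. Both are from RefSeq (GRCm38.p6), plus strand, 5′ to 3′, ending just before the first annotated exon base, with the GC box GGGCGG (searched on both strands) in capitals. The Irx2 stretch is chr13:72628570-72628819 and the Irx4 stretch chr13:73260247-73260478.
Irx2: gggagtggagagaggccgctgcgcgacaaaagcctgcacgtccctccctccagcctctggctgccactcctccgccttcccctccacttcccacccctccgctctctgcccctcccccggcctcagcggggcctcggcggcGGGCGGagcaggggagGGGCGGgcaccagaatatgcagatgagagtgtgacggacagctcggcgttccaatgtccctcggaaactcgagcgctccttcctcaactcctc
Irx4: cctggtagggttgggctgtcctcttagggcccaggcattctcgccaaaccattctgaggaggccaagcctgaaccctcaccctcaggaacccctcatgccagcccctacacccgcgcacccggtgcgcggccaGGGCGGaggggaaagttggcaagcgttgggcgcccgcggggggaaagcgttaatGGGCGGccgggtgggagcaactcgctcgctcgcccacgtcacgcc

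The 2 stretches had similar composition, with 68.4% G or C, 19 CpG dinucleotides and 2 GC boxes for Irx2, and 68.1%, 19 and 2 for Irx4. RefSeq promoters were matched for 47 of the 73 members, in 61 windows. The 250 bases before the start held the GC box in 36 of the 61 windows (59.0%), against 32.7% of all 32851 promoter windows. The TATA box TATAAA was in 4 of the 61 (6.56%, against 12.4% of all windows). The median G or C content was 62.0% in the members' windows and 52.4% in all windows. The Iroquois site ACANNTGT was found in 2 of the 61 windows, those of Foxp1 and Pou2f2 (3.28%, against 6.31% of all windows), and in none of the 3 Irx genes with a RefSeq entry (Irx2, Irx3 and Irx4). Each motif was searched on both strands, and a match is a description of the letters only.

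Levels between genes were compared per length, as CPM per kb of merged exons averaged over the libraries. Irx2 was the most abundant member at 33.4, followed by the oligodendrocyte factor Sox10 at 31.7, Zic2 at 28.8, Sox8 at 27.9 and Irx1 at 23.0. Next came Sox2, the stem-cell and astroglial factor, at 19.6, Lhx9, a LIM-homeodomain factor of the thalamus, at 19.2, and Foxk2, a widely expressed forkhead protein, at 18.3. Nkx6-2, a factor of myelinating oligodendrocytes, stood at 15.9. The highest level in the POU family was 12.6, of Pou6f1. Within a family the range was wide. The Irx genes ran from 33.4 for Irx2 to 0.452 for Irx4, and the Lhx genes from 19.2 for Lhx9 to 0.0456 for Lhx6. These 9 genes thus comprised 4 of the caudal diencephalon (Irx2, Zic2, Irx1, Lhx9), 3 of oligodendrocytes (Sox10, Sox8, Nkx6-2), 1 astroglial gene (Sox2) and 1 widely expressed gene (Foxk2).

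**Figure D1:**
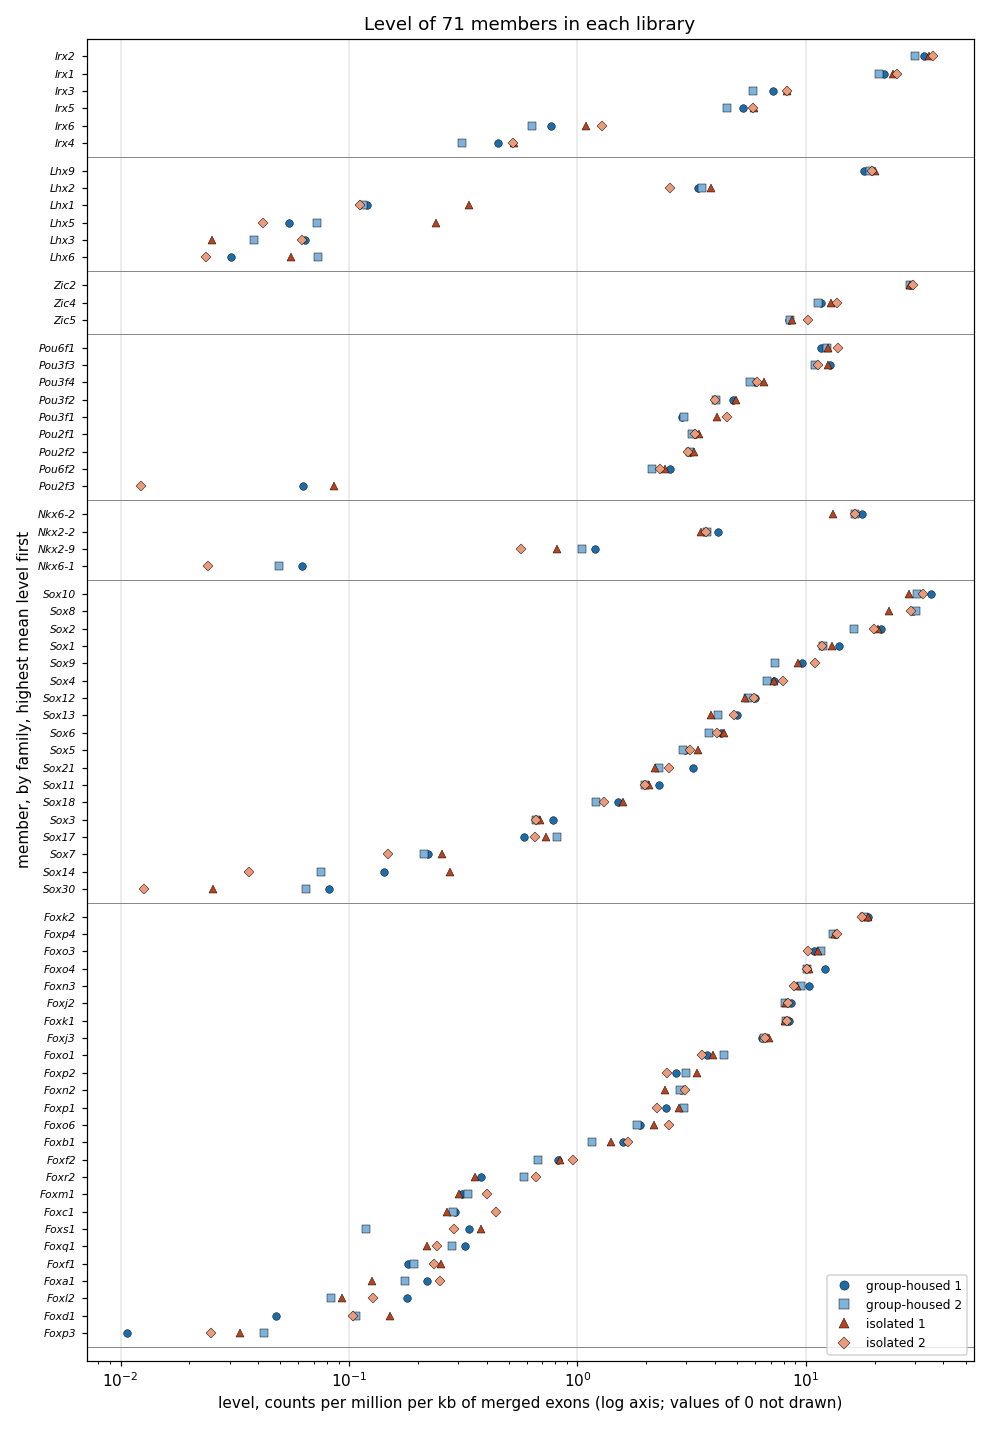
Level of 71 of the 73 members in CPM per kb of merged exons (log axis), by family and ordered by mean level, with 1 symbol per library. Irx2, Sox10, Zic2 and Sox8 lie farthest to the right, and for most members above 1 CPM per kb the 4 symbols nearly coincide.

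A few members and matching genes of the ventral forebrain had low counts. Nkx2-1, of the hypothalamus and ventral telencephalon, gave 5 counts over all libraries, Lhx8 gave 2 and Lhx6 gave 22. Of the 35 genes below the minimum, 16 had no count in any library, and the 19 others had 1 to 9 counts. Every Irx and Zic gene of the rule reached the minimum, against 5 of 14 Nkx and 25 of 43 Fox genes.

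No member differed between isolated and group-housed libraries after adjustment over all 17528 tested genes (edgeR quasi-likelihood test with Benjamini-Hochberg adjustment, threshold 0.05). In that test 0.0114% of genes passed as higher in isolation and 0% as lower. Of the 73 members 65 had enough counts to be tested. The smallest edgeR adjusted p among them was 0.319, for Pou3f1. Without adjustment, 7 of the 65 had p under 0.05 and were higher in isolation, beside 2.83% of all tested genes, and 0 were lower, beside 2.26%. The 7 were Irx1, Irx2, Irx3, Irx5, Irx6, Zic4 and Pou3f1. The groups did not overlap for 20 of the 65 as higher, beside 17.4% of all tested genes, and for 5 as lower, beside 16.3%. The median log2 fold change was 0.03 over the 65 and 0.00331 over all tested genes.

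**Figure D2:**
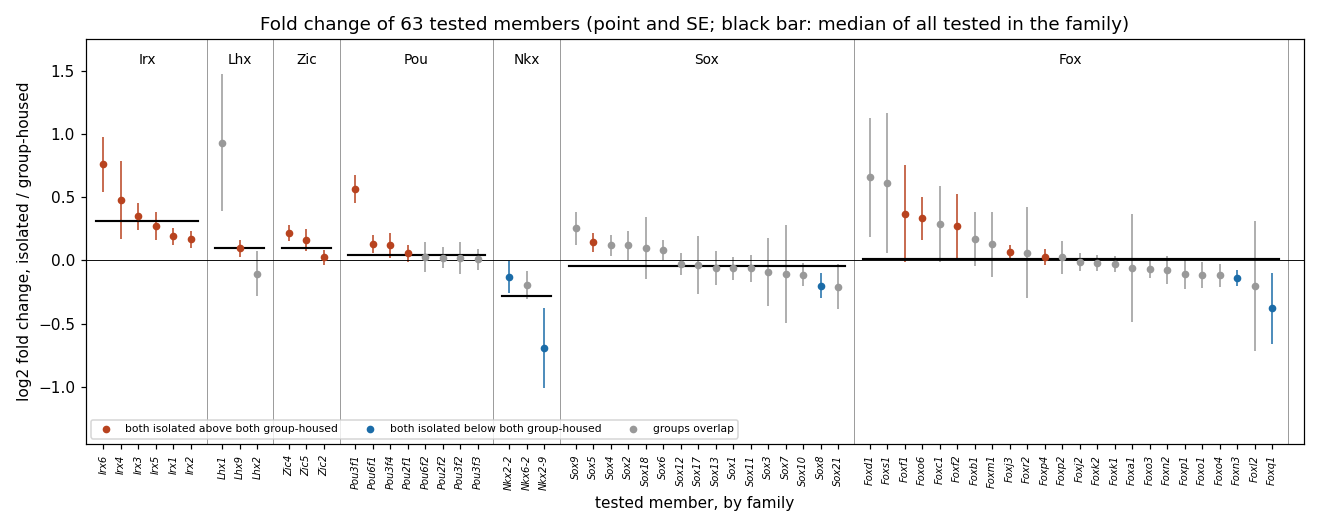
Log2 fold change (isolated over group-housed, with its SE from the fit) of 63 of the 65 tested members by family, with the median of all tested members of a family as a black bar. All 6 Irx genes lie above 0 with groups that do not overlap, the Nkx genes drawn lie below 0, and the Sox and Fox genes scatter around 0.

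All 6 Iroquois genes were higher in the isolated libraries. In none of them did the groups overlap, beside 17.4% of all tested genes without overlap as higher. The median log2 fold change of the 6 was 0.31, with a range from 0.17 to 0.76, beside 0.00331 over all tested genes. None of the 6 passed the edgeR test after adjustment (adjusted p from 0.716 to 0.994). An unadjusted p under 0.05 was found for 5, all higher, beside 2.83% of all tested genes as higher. By cluster, the median log2 fold change was 0.19 for Irx1, Irx2 and Irx4 and 0.35 for Irx3, Irx5 and Irx6.

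Irx6 (ENSMUSG00000031738, chr8:92674288-92680956, plus strand) had the largest difference of the family. It measured 2.58 and 2.14 CPM with group housing and 3.66 and 4.31 CPM with isolation, from 53, 55, 96 and 114 counts. The groups did not overlap, and the mean was 1.69-fold higher in isolation. The log2 fold change was 0.76 (SE 0.22, edgeR adjusted p = 0.716). Irx3 (ENSMUSG00000031734, chr8:91798525-91802067, minus strand), which helps to set the competence of the thalamic field, measured 19.8 and 16.2 CPM and then 22.7 and 22.9 CPM in isolation. The second group-housed library was the lowest, and the isolated libraries were nearly equal. The log2 fold change was 0.35 (SE 0.11, edgeR adjusted p = 0.788). Its cluster neighbour Irx5 (chr8:92357625-92376286, plus strand) measured 16.7 and 14.1 CPM in group-housed mice and 18.6 and 18.4 CPM after isolation, with a log2 fold change of 0.27 (SE 0.11, edgeR adjusted p = 0.934).

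On chromosome 13 the abundant members differed by less. Irx1 (ENSMUSG00000060969, chr13:71957921-71963723, minus strand) measured 57.6 and 55.0 CPM with group housing and 63.1 and 65.3 CPM with isolation. Its log2 fold change was 0.19 (SE 0.07, edgeR adjusted p = 0.840). Irx2 (ENSMUSG00000001504, chr13:72628820-72634198, plus strand) measured 108 and 98.5 CPM and then 114 and 118 CPM, with a log2 fold change of 0.17 (SE 0.07, edgeR adjusted p = 0.933). Irx4 (chr13:73260479-73269608, plus strand), a gene best known from the heart ventricle, rested on 24, 21, 36 and 36 counts and measured 1.17 and 0.817 CPM and then 1.37 and 1.36 CPM. In 5 of the 6 genes the isolated replicates lay closer together than the group-housed ones, the exception being Irx6.

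The family stayed higher in isolation for all 6 genes when any 1 library was left out. Dropping group-housed replicate 1 gave a median of 0.44, and dropping group-housed replicate 2, the lowest library for each Irx gene, gave 0.17. In the latter fit Irx2 stood at 0.090, Irx5 at 0.14 and Irx3 at 0.20. Irx3 shares 124 exonic bases with the antisense gene Irx3os and Irx6 shares 152 with Gm45505. Irx3os had 193 counts over all libraries and a log2 fold change of 0.10, and Gm45505 had 0 counts. The kit keeps strand, but the labels leave the strand setting of the counting unstated.

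**Figure D3:**
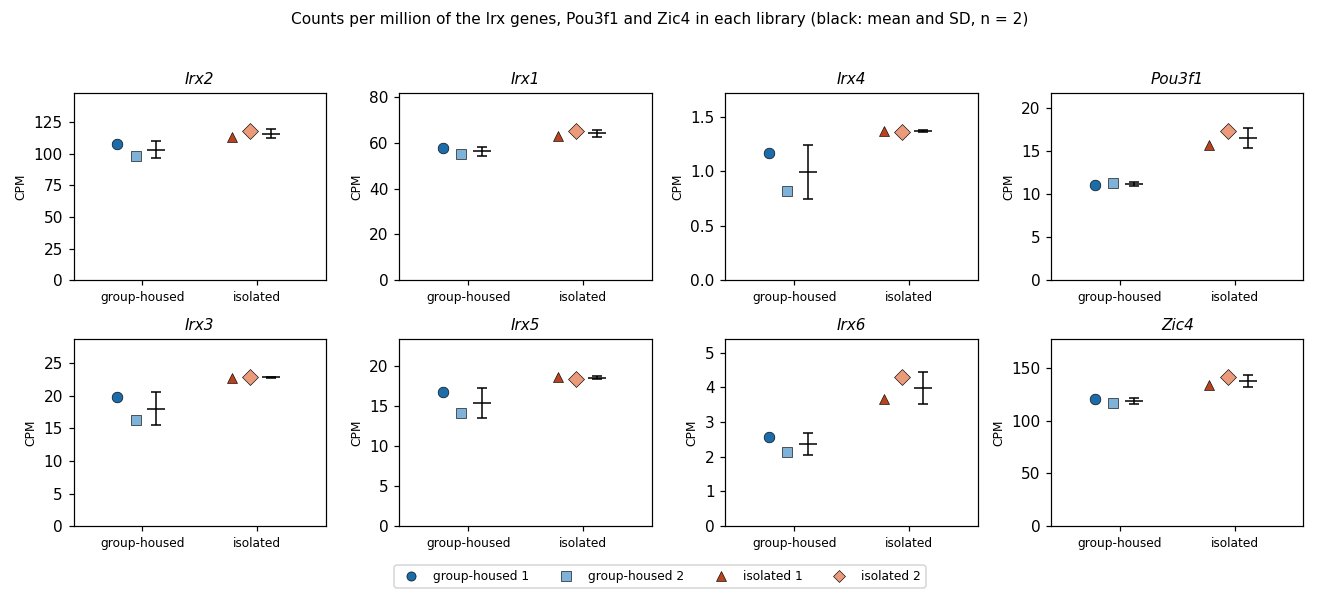
CPM in each library for the 6 Irx genes, Pou3f1 and Zic4 (vertical axes start at 0), with mean and SD of 2 libraries per group in black. No panel shows an overlap of the groups, and isolated libraries are higher by the largest ratio for Irx6 (1.69-fold) and Pou3f1 (1.48-fold).

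Medial habenula markers differed in the same direction as the Irx genes. With each gene centred on its own mean, the median log2 level of the Irx family was -0.02 and -0.29 in the group-housed replicates, then 0.16 and 0.15 in the isolated ones. Over the 12 medial habenula markers it was -0.13 and -0.30, and then 0.23 in each isolated library. Of these 12 markers 10 were higher in isolation (median log2 fold change 0.42). For 9 the groups did not overlap in that direction, beside 17.4% of all tested genes. The only genes of the whole table to pass the edgeR test, Slc5a7 and Chrnb3, belong to these markers (edgeR adjusted p = 0.0227 for both). Chat, which synthesises acetylcholine in medial habenula neurons, measured 26.7 and 22.5 CPM and then 43.0 and 37.0 CPM. The 11 lateral habenula markers had a median log2 fold change of 0.01 (6 higher, 5 lower). For 5 of these 11 the groups did not overlap as higher, beside 17.4% of all tested genes, and for 1 as lower, beside 16.3%. An unadjusted p under 0.05 in the edgeR test was found for 4, all higher, beside 2.83% of all tested genes as higher. Of 16 thalamus markers 15 were lower (median -0.33), with their lowest median level in isolated replicate 2. The part of medial habenula tissue in the Irx values was not tested.

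**Figure D4:**
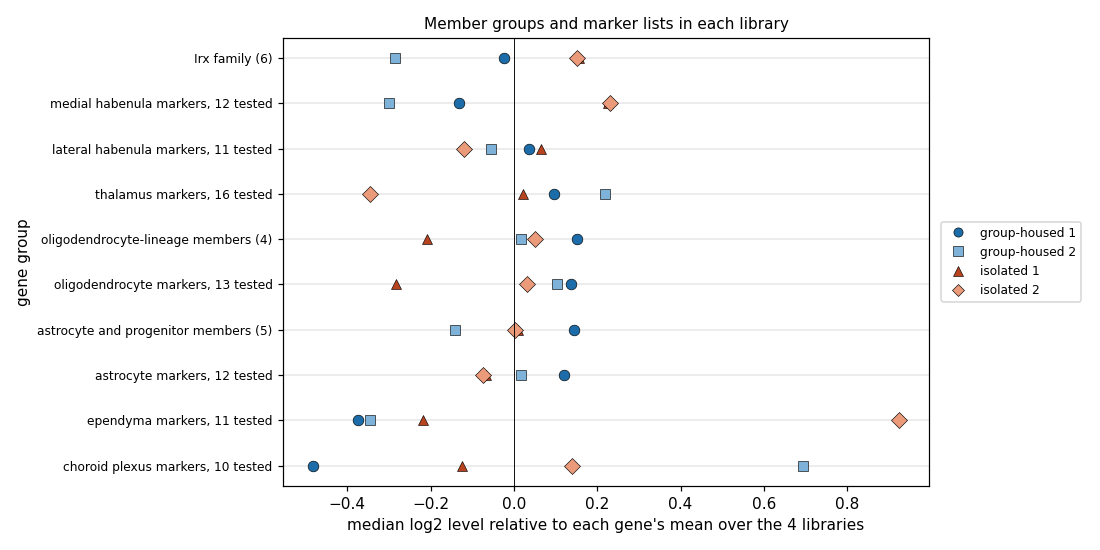
Median log2 level of member groups and of marker lists in each of the 4 libraries, with every gene centred on its own mean. The Irx family and the medial habenula markers are highest in both isolated libraries, the oligodendrocyte-lineage members and markers are lowest in isolated replicate 1, and ependyma markers stand at 0.92 in isolated replicate 2.

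The Zic genes encode zinc finger proteins of the dorsal neural tube and diencephalon, and Zic5 and Zic2 lie head to head on chromosome 14, 9758 bases apart. All 4 had a log2 fold change above 0 (0.02 to 0.22, median 0.10). For 3 the groups did not overlap, beside 17.4% of all tested genes as higher. Zic4 (ENSMUSG00000036972, chr9:91362413-91389348, plus strand) measured 120.3 and 116 CPM in group-housed mice and 133 and 141 CPM after isolation. Its groups were separated by more than the distance within either group. The log2 fold change was 0.22 (SE 0.06, edgeR adjusted p = 0.726). Its divergent neighbour Zic1 measured 526 and 491 CPM and then 554 and 559 CPM (log2 fold change 0.13). The exons of these genes share 60 bases on opposite strands, 0.58% of the Zic4 exons.

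Zic5 measured 41.0 and 41.7 CPM with group housing and 42.5 and 50.0 CPM with isolation. Its difference lay in isolated replicate 2. Zic2, whose loss impairs closure and midline formation of the forebrain, measured 82.0, 82.4, 82.5 and 84.5 CPM and so spanned a narrower range than Zic5. Dropping isolated replicate 2 left a family median of 0.023 with 3 of 4 genes higher, and dropping isolated replicate 1 left 0.24 with all 4 higher.

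Among POU genes, Pou3f1 stood apart. Pou3f1 (ENSMUSG00000090125, chr4:124656807-124660655, plus strand), also called Oct6, acts in cortical and hippocampal neurons and in Schwann cells. It measured 11.0 and 11.3 CPM in group-housed mice and 15.7 and 17.3 CPM after isolation, from 226, 291, 412 and 459 counts. The group-housed replicates were nearly equal, the isolated ones were both higher, and the means differed 1.48-fold. The log2 fold change was 0.56 (SE 0.11, edgeR adjusted p = 0.319). Without isolated replicate 1 the gene passed, with a log2 fold change of 0.63 and an edgeR adjusted p = 0.0475, in a fit that called 0.835% of all tested genes as higher. Over its 10 alternatives the adjusted p ran from 0.0475 to 0.9995. Pou3f1 shares 330 exonic bases with the antisense gene Gm2164, which had 76 counts in all.

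Markers of hippocampus and cortex were also higher in isolation (6 of 9 tested, median log2 fold change 0.30), and their summed level was 459 to 463 CPM in the group-housed and 521 to 556 CPM in the isolated libraries. Their part in the Pou3f1 values was not tested. Within that list Neurod2, a factor of excitatory cortical neurons, had the largest log2 fold change (0.86). It and 3 others of the 9 had an unadjusted p under 0.05 in the edgeR test, all higher, beside 2.83% of all tested genes as higher.

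The other members of the Pou3f group differed less. Pou3f3 (Brn1), an upper-layer cortical and diencephalic factor, measured 94.2 and 81.6 CPM and then 92.9 and 83.9 CPM, with overlapping groups. Pou3f4 (Brn4), mutated in an inherited deafness, measured 17.5 and 16.6 CPM and then 19.2 and 17.8 CPM, where the gap between the groups was smaller than the distance between the isolated replicates. Pou6f1 measured 80.9 and 85.5 CPM and then 86.6 and 95.9 CPM. All 8 tested POU genes had a log2 fold change above 0, with a median of 0.04, so that Pou3f1 apart the values lay between 0.01 and 0.13. Without isolated replicate 1, 4 of the 8 POU genes were higher and 4 lower, with a median of 0.011.

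The LIM-homeodomain family had 1 abundant member. Lhx9 measured 171 and 181 CPM with group housing and 191 and 184 CPM with isolation, and the groups did not overlap. Lhx2, which acts in thalamus, hippocampus and glia, measured 14.8 and 15.4 CPM and then 16.9 and 11.2 CPM. The isolated replicates thus lay on either side of the group-housed ones, with a log2 fold change of -0.10 (SE 0.18, edgeR adjusted p = 0.9998), which was 0.16 without isolated replicate 2. The thalamus markers were lowest in that replicate too, at -0.34 relative to the mean of the libraries.

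Lhx1 and Lhx5, paired factors of the pretectum, the thalamic border and the hypothalamus, were high in a single library. Lhx1 gave 10 and 12 counts with group housing and 36 and 12 with isolation, or 0.487, 0.467, 1.37 and 0.453 CPM. Its log2 fold change was 0.93 (SE 0.54, edgeR adjusted p = 0.979), and -0.072 without isolated replicate 1. Lhx5 gave 3, 5, 17 and 3 counts and was not tested. Sox14, a factor of inhibitory thalamic interneurons, gave 6, 4, 15 and 2 counts and was not tested either. In CPM, isolated replicate 1 was the highest and isolated replicate 2 the lowest library for all 3 genes. Lhx1 and Lhx5 were also the only members whose highest library exceeded the next by more than 2-fold. Lhx3 (14 counts in all) and Lhx6 (22 counts in all), a factor of forebrain interneurons, were too low for a comparison.

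The Nkx family was lower in isolation for all 4 tested members, and its log2 fold changes spanned -0.69 to -0.13 around a median of -0.28. No member had an unadjusted p under 0.05. Nkx2-9, a ventral midline factor of the embryo, measured 1.51 and 1.32 CPM in group-housed mice and 1.03 and 0.718 CPM after isolation. Its groups did not overlap, on 31, 34, 27 and 19 counts (log2 fold change -0.69, SE 0.31, edgeR adjusted p = 0.979). Nkx6-2 measured 33.4 and 31.2 CPM and then 25.0 and 31.3 CPM, low in isolated replicate 1 alone. Nkx2-2, which drives oligodendrocyte differentiation, measured 11.9 and 10.6 CPM and then 9.98 and 10.5 CPM, without overlap. Nkx6-2 shares 246 exonic bases, 12.9% of its exons, with Inpp5a on the opposite strand.

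The family median was -0.12 when isolated replicate 1 was dropped and -0.41 when isolated replicate 2 was. The sparse Nkx6-1 had 10 counts in all and was not tested.

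The Sox genes showed no common direction. Of 16 tested members 6 were higher and 10 lower (median -0.05 on the log2 scale). This split was 13 higher and 4 lower without group-housed replicate 1 and 10 higher and 7 lower without isolated replicate 2. With all libraries the groups did not overlap for 1 in each direction (Sox5 and Sox8), beside 17.4% of all tested genes as higher and 16.3% as lower. Sox10, needed for the oligodendrocyte lineage, measured 107 and 93.6 CPM with group housing and 86.5 and 99.1 CPM with isolation. Sox8, its partner in the SoxE group, measured 91.8 and 94.1 CPM and then 71.8 and 90.0 CPM. Both were lowest in isolated replicate 1. Sox8 shares 329 exonic bases with the antisense gene 2810468N07Rik, which measured 47.2 and 46.6 CPM and then 35.6 and 47.0 CPM and so was lowest in the same library.

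Sox9, the third SoxE gene and a nuclear marker of astrocytes and ependyma, went the other way. It measured 39.9 and 30.4 CPM in group-housed mice and 38.4 and 45.2 CPM after isolation, with overlapping groups (log2 fold change 0.25, SE 0.13, edgeR adjusted p = 0.979). The value was 0.057 when group-housed replicate 2 was dropped, 0.46 when group-housed replicate 1 was, and 0.13 without isolated replicate 2. Isolated replicate 2 was also the library with the highest ependyma markers, whose summed level was 88.7 to 92.7 CPM in the group-housed libraries, 98.8 CPM in isolated replicate 1 and 204 CPM in isolated replicate 2. Foxj1, the ciliogenesis factor in that list, measured 25.9 and 22.4 CPM and then 22.8 and 44.8 CPM. The part of ependyma in the Sox9 values was not tested.

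Among the SoxB genes of neural progenitors and astroglia, Sox2 measured 43.8 and 33.5 CPM and then 42.7 and 41.0 CPM, and Sox1 measured 67.4 and 57.5 CPM and then 62.8 and 56.8 CPM. In both, the difference between the group-housed replicates exceeded that between the group means. Sox21 measured 12.1 and 8.68 CPM and then 8.34 and 9.59 CPM. Its log2 fold change was -0.21 (SE 0.18, edgeR adjusted p = 0.9998), and 0.048 without group-housed replicate 1. The endothelial factor Sox18 measured 2.44 and 1.95 CPM and then 2.55 and 2.11 CPM, an overlap of the groups. The SoxC and SoxD genes, which act in differentiating neurons and glia, had log2 fold changes from -0.06 (Sox11) to 0.14 (Sox5).

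The forkhead family was the largest and the most even. Of 24 tested members 12 were higher and 12 lower (median 0.0073 on the log2 scale), and no member had an unadjusted p under 0.05. The groups did not overlap for 5 members as higher, beside 17.4% of all tested genes, and for 2 as lower, beside 16.3%. The abundant members are widely expressed genes. Foxk2, a regulator of metabolism and autophagy, measured 98.7 and 94.8 CPM with group housing and 98.6 and 92.5 CPM with isolation. Foxp4 measured 66.2 and 64.8 CPM and then 66.3 and 67.1 CPM. Foxo3, which is held out of the nucleus by insulin signalling, measured 81.9 and 88.3 CPM and then 85.5 and 77.1 CPM. The groups overlapped or differed by less than 1 CPM between neighbouring libraries in these 3 genes.

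The largest forkhead differences were in sparse genes of vessels and connective tissue. Foxd1, of stromal and mural cells, gave 5 and 14 counts with group housing and 20 and 14 with isolation, and its CPM values overlapped between groups (log2 fold change 0.66, SE 0.47, edgeR adjusted p = 0.999). Its log2 fold change was 0.24 when the first group-housed library was dropped, and was 1.38 when the second was. Foxq1, of brain endothelium, gave 32 and 35 counts and then 28 and 31 (log2 fold change -0.38, SE 0.28, edgeR adjusted p = 0.999). Foxq1 shares 66.1% of its exonic bases with A530084C06Rik on the opposite strand. Foxf2, of brain pericytes, measured 1.95 and 1.60 CPM and then 1.98 and 2.27 CPM. The regulatory T-cell gene Foxp3 gave 13 counts in all and was not tested.

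Members were also grouped by the cells known to use them and set beside marker genes of those cells. The 4 oligodendrocyte-lineage members (Sox8, Sox10, Nkx2-2, Nkx6-2) were all lower (median log2 fold change -0.17), and none had an unadjusted p under 0.05. Their summed level was 244 and 229 CPM in group-housed mice and 193 and 231 CPM after isolation, so the lower value was that of isolated replicate 1. Without that library the 4 stayed lower, with a median of -0.046. All 13 oligodendrocyte markers were lower too (median -0.22), with summed levels of 14634 and 13625 CPM and then 11093 and 13076 CPM, again lowest in isolated replicate 1. Of the 9 oligodendrocyte precursor markers 8 were lower (median -0.11). The 1 higher was Sox6 (log2 fold change 0.08), a member of the Sox family outside this group of 4. The part of oligodendrocyte content in the values of the 4 members was not tested.

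The 5 astrocyte and progenitor members had a median of -0.06 with 2 higher and 3 lower. All 5 were higher without group-housed replicate 1 (median 0.056), and 4 of 5 lower without group-housed replicate 2 (median -0.18). In the marker list 11 of 12 astrocyte markers were lower (median -0.13). The 10 endothelial, mural and meningeal members had a median of 0.18, with 6 higher and 4 lower. Several of these are sparse. Of the 10, 5 had a mean of at least 1 CPM, and in the fit with that filter their median was 0.10, with 3 higher and 2 lower. Medians of the matching marker lists were 0.06 for endothelium (6 higher, 5 lower), 0.0081 for pericytes and smooth muscle (5 higher, 5 lower) and -0.05 for meningeal fibroblasts (4 higher, 5 lower). The 17 members grouped as broadly expressed had a median of -0.03, with 6 higher and 11 lower. That group also holds the SoxC genes Sox11 and Sox12, which act in differentiating neurons and glia, so its name is loose. Of the 14 thalamic, pretectal and habenular members, which include the 4 Zic genes and every Irx gene but Irx4, 13 were tested. All 13 had values above 0 (median 0.17), 9 of them without overlap of the groups, beside 17.4% of all tested genes as higher. The thalamus markers, in contrast, had a median of -0.33, so the 2 lists differed in direction. Lhx2, which also acts in thalamus, was counted among the telencephalic and ventral forebrain members and was lower (log2 fold change -0.10). Leaving out any 1 library left 1 or 2 of the thalamic, pretectal and habenular members lower.

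Cofactors of these families were read from separate lists. None of their genes passed the edgeR test after adjustment. Among 12 TALE homeodomain cofactors (Pbx, Meis and their relatives), 5 were higher and 7 lower (median -0.02). An unadjusted p under 0.05 was found for 3, all higher, beside 2.83% of all tested genes as higher. Pbx3, a DNA-binding partner of homeodomain proteins, measured 55.9 and 56.5 CPM with group housing and 64.4 and 65.0 CPM with isolation (log2 fold change 0.20, edgeR adjusted p = 0.774). Pbx4 had a log2 fold change of 0.26 and Pknox2 of 0.26. Of 6 tested LIM cofactors and further LIM-homeodomain genes 5 were higher (median 0.05), with Lmo3 at 46.2 and 45.4 CPM and then 57.7 and 50.1 CPM (0.23). The 6 Groucho co-repressors, which many homeodomain and forkhead proteins recruit, had a median of 0.02 with 4 higher and 2 lower.

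Of 34 further forebrain patterning genes 23 were tested, with 12 higher and 11 lower and a median of 0.02. Among these, 5 had an unadjusted p under 0.05 as higher, beside 2.83% of all tested genes, and 3 as lower, beside 2.26%. The 5 higher ones were Pou4f1 (log2 fold change 0.24), Etv1 (0.22), Bcl11a (0.27), Otx2 (0.34) and Hopx (0.20). The 3 lower ones were the thalamic factors Rora (-0.49), Rorb (-0.30) and Gbx2 (-0.54). Pou4f1, the POU gene that defines habenular neurons, measured 136 and 129.5 CPM and then 162 and 151 CPM, without overlap (edgeR adjusted p = 0.665). Of 11 tested proneural and glial bHLH genes 5 were higher and 6 lower (median -0.06). Neurod1 (0.47) and Neurod2 (0.86) were higher and Olig1 (-0.17) lower at an unadjusted p under 0.05, beside the same 2.83% and 2.26% of all tested genes.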

How the data were processed

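Counts per Ensembl gene were used as the authors deposited them, for 2 group-housed and 2 isolated libraries. CASAVA, TopHat2 (2.1.1), HTSeq, edgeR and the GRCm38 build appear, without roles, per the submitters' processing notes, and a stranded mRNA kit was used, per the labels' protocols. Neither names the annotation release or the strand setting of the counting. Each library also has a deposited table of the same counts times a constant, which was not used.

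Symbols, exons and coordinates came from GENCODE M21 (GRCm38), which matched 53360 of 53465 identifiers. The groups were compared in R 4.3.3 by edgeR 4.0.16 (TMM, filterByExpr, 2-sided quasi-likelihood test, no covariate, Benjamini-Hochberg over 17528 tested genes). TMM factors ran from 0.983 to 1.020, the common biological coefficient of variation was 7.20%, with 2 residual degrees of freedom. An SE is a fold change's size (log2) over the root of its F statistic. Log2 levels by library used a prior count of 2. The fit was also run on simulated data whose changes were larger than those of any member, so that run does not bear on differences of the size reported here. Alternatives were other size factors (RLE), DESeq2 1.42.0, limma-voom (limma 3.58.1), other low-count filters, a replicate block and leaving out each library. Lists were described by counts and medians, without a set test.

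Members with a fold change and its error are those with an unadjusted p under 0.05 or a call in any alternative, and the largest difference each way in a family. Members named for their level are the 3 highest of a family and the 2 highest of a cell class, others were named after their values were seen, and those just beside the count minimum are given once. The single values of 2 members are not reported here or drawn, but both are in every count and median. The members and lists were chosen with earlier results of these data known.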

Additional observations from a re-analysis of the deposited data

How the results depend on the processing

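The number of genes called over all tested genes was 42 higher and 10 lower with DESeq2, 15 higher with no low-count filter, and 52 higher and 12 lower with the replicate block. Leaving out 1 library gave 0 to 151 genes as higher and 0 to 70 as lower, with both upper ends without socially isolated replicate 1. Members called as higher were 0 to 1 in those fits (Pou3f1), and 0 under every other alternative run. The labels of both groups carry the numbers 1 and 2. Same-numbered libraries deviated together with r = 0.14 across 17528 genes, which are not independent, and 2 pairs are too few to show a pairing. Over the 4 fits without 1 library, family medians of the log2 fold change ran from 0.17 to 0.44 for Irx, -0.072 to 0.84 for Lhx, -0.091 to 0.056 for Sox, -0.41 to -0.12 for Nkx, 0.023 to 0.24 for Zic, 0.011 to 0.13 for Pou and -0.0078 to 0.039 for Fox. The Lhx medians do not cover the same genes. They rest on 3 tested genes with all libraries and without isolated replicate 1, and on 4 in the other fits without 1 library. Medians of cell classes ran from -0.29 to -0.046 (oligodendrocyte lineage), -0.18 to 0.056 (astrocyte and neural progenitor), 0.048 to 0.28 (endothelial, mural and meningeal), 0.10 to 0.33 (telencephalic), 0.14 to 0.24 (thalamic, pretectal and habenular) and -0.020 to 0.022 (broadly expressed). The telencephalic class had only 2 tested members with all libraries, Pou3f1 (log2 fold change 0.56) and Lhx2 (-0.10), which went in opposite directions. With no low-count filter the telencephalic median was -0.11, where Lhx6 joined the tested genes. Of the 65 tested members 33 turned direction in at least 1 of these 4 fits, and 0 under the other alternatives. Among the 14 members given with an error these were Lhx1 (-0.072 to 1.52), Lhx2 (-0.43 to 0.16) and Sox21 (-0.45 to 0.048). The cause of these shifts was not tested. Members under about 50 counts in every library carried SEs above 0.2 on the log2 scale.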

Other observations

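A second gene cluster on chromosome 13 holds the forkhead genes Foxq1, Foxf2 and Foxc1, with 64840 bases between Foxq1 and Foxf2 and 175230 between Foxf2 and Foxc1. Foxq1 was lower (log2 fold change -0.38), while Foxf2 (0.27) and Foxc1 (0.29) were both higher. Their SEs were of about the size of these fold changes, so no contrast in direction with the Irx clusters can be drawn. Foxc1, a factor of meningeal and mural cells, gave 35 and 43 counts with group housing and 41 and 68 with isolation, so its higher mean lay in isolated replicate 2. The meningeal fibroblast list, which includes Foxc1, had its highest median level in that library as well (0.22, against -0.25 in isolated replicate 1). Sox30, a testis-enriched Sox gene that was not tested, gave 5 counts in each group-housed library and 2 and 1 in the isolated ones.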
